A study of Mus musculus with 2 samples.

Results

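In 378 genes, the protein-coding transcript with the highest expression was a different one in the Musclin library than in the vehicle library. These are the genes described here, with all 2035 of their protein-coding transcripts. They were found among 3576 genes that had 2 or more protein-coding transcripts and a coding total of at least 10 FPKM (fragments scaled to transcript length and library size) in both libraries, so they make up 10.6% of the genes in which such a difference could be seen. The deposited table holds 30491 genes and 88702 transcripts in all, and 17399 of its genes have a coding transcript. The genes were chosen by the measured FPKM values themselves, and the ranks, leads and shares given below describe what the rule picked out. They are no independent evidence of a difference.

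Both libraries came from muscle-resident fibro/adipogenic progenitors (FAPs), stromal cells between the fibres of skeletal muscle that give rise to fibroblasts and fat cells. The cells were primary wild-type (WT) mouse cells, freshly sorted and grown in DMEM with 20% FBS, and total RNA was sequenced. The cells received 1 µM mouse recombinant Musclin, a secreted peptide of muscle, or vehicle in equal quantity, in either case for 24 h. Each group has a single library. No p-value was therefore computed, no difference is checked by replicates, and a difference between the conditions and a difference between 2 libraries cannot be told apart. The column read as vehicle is headed BSA and was assigned by elimination. The labels do not give sex, age or the number of animals.

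A mammalian gene can give rise to several messenger RNAs through alternative promoters, alternative splicing of exons and alternative polyadenylation sites. The products may differ in protein sequence, or carry the same protein with other untranslated ends that affect translation and stability. Mesenchymal and muscle cells are known for regulated splicing of fibronectin, tropomyosin and the transcription partners of the Hippo pathway, and RNA-binding proteins of the SR, hnRNP, MBNL and CELF families act on such choices. In short-read data most fragments fall on stretches that the transcripts of a gene share, and their division among transcripts is an estimate.

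The sequences below are stretches found in only 1 of the leading transcripts of genes taken up later. In several pairs they are only part of what tells the leaders apart, so the estimates do not turn on them alone. In Cul5, for example, 2442 bases are in the Musclin leader only and 85 in the vehicle leader only. The first set are coding exons present in 1 of the 2 leaders and skipped in the other, with the exon in capitals and the 10 neighbouring bases of the spliced transcript on either side in lower case. They run 5′ to 3′ on the transcript strand, are taken from the GENCODE vM21 transcripts, and are followed by a sentence on where each one lies in GRCm38. Yap1 is included although it was chosen after its values were seen.

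Mpdz, 99-base exon of the Musclin leader: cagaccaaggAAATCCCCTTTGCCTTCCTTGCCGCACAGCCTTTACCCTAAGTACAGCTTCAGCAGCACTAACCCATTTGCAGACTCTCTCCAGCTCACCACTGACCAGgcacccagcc

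Tead1, 63-base exon of the Musclin leader: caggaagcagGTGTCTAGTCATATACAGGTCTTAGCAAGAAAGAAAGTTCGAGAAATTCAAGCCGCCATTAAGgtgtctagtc

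Afdn, 45-base exon of the Musclin leader: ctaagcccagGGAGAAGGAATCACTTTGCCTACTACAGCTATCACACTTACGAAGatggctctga

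Afdn, 21-base exon of the Musclin leader: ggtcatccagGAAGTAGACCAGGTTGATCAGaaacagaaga

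Vps53, 87-base exon of the Musclin leader: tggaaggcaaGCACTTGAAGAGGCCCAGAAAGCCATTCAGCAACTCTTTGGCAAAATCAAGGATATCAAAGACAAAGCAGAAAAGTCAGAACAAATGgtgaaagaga

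Map4k3, 63-base exon of the Musclin leader: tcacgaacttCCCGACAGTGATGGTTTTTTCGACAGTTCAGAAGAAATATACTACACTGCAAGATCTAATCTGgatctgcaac

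Fn1, 273-base exon of the Musclin leader: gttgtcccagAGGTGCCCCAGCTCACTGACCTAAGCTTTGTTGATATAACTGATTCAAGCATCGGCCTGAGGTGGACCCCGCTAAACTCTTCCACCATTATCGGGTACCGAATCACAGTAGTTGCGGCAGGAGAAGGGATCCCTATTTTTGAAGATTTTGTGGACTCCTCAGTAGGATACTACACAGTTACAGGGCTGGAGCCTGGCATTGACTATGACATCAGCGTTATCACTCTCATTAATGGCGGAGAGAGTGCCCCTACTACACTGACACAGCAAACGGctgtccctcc

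Yap1, 48-base exon of the vehicle leader: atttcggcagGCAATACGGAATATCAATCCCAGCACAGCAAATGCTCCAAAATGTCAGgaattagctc

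Cul5, 81-base exon of the vehicle leader: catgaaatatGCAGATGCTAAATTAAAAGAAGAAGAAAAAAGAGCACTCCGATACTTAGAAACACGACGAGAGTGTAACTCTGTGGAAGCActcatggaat

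The Mpdz exon lies at chr4:81313500-81313598 on the minus strand and the Tead1 exon at chr7:112841888-112841950 on the plus strand. Those of Afdn lie at chr17:13825943-13825987 and chr17:13848355-13848375 on the plus strand. The Vps53 exon lies at chr11:76138308-76138394, the Map4k3 exon at chr17:80629286-80629348, the Fn1 exon at chr1:71613763-71614035, the Yap1 exon at chr9:7950492-7950539 and the Cul5 exon at chr9:53642518-53642598, all 5 on the minus strand. Each of the 9 has a length that is a multiple of 3 and so keeps the reading frame.

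In Stat3, Hnrnph1 and Il1r1 the leaders part in another way. The Stat3 stretch in capitals is 50 bases of coding sequence at chr11:100889541-100889590 (minus strand) that the Musclin leader keeps and the vehicle leader lacks, which shifts the frame of the end of the protein. The Hnrnph1 stretch in capitals is a 50-base exon at chr11:50385141-50385190 (plus strand) of the vehicle leader, of which 47 bases are coding before the stop codon is reached.

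Stat3, 50 bases of the Musclin leader: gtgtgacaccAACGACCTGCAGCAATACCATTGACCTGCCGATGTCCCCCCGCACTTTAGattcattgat

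Hnrnph1, 50-base exon of the vehicle leader: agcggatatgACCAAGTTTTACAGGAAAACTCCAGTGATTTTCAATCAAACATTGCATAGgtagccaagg

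The Il1r1 leaders begin at different places on the plus strand of chromosome 1, and the windows below (RefSeq, GRCm38.p6) show 150 bases upstream of each start in lower case and the first 20 transcribed bases in capitals, at chr1:40224930-40225099 for the Musclin leader and chr1:40266436-40266605 for the vehicle leader.

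Il1r1, start of the Musclin leader: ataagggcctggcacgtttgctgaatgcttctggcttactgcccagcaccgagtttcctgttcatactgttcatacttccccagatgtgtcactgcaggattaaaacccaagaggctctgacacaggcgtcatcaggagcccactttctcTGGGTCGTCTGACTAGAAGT

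Il1r1, start of the vehicle leader: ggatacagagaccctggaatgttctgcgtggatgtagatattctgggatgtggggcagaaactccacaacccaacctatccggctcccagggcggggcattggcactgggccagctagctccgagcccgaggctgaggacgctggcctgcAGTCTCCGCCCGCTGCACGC

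The sequencing depth was 6.69 Gb (gigabases of aligned reads) for the Musclin library and 6.76 Gb for the vehicle library, as worked out from the steps in the FPKM values. All 8 genes checked as FAP markers were at 1 FPKM or more in both libraries, with a summed level of 1346 FPKM with Musclin against 1447 FPKM with vehicle. Among the 8 is Tcf4, at 20.0 and 21.1 FPKM, which was matched by symbol and may not be the marker meant by that name. Single markers went both ways, with Dcn at 181 FPKM with Musclin against 64.8 FPKM with vehicle, Col3a1 at 233 FPKM with Musclin against 392 FPKM with vehicle, and Osr1 at 15.1 FPKM with Musclin against 34.8 FPKM with vehicle. Of 5 muscle cell markers, 3 were found in the table and all 3 were below 0.1 FPKM in both libraries. The summed level of 5 leukocyte markers was 12.3 FPKM with Musclin against 18.1 FPKM with vehicle. Most of it was Lyz2, at 8.46 FPKM with Musclin against 14.1 FPKM with vehicle, and Cd68, at 3.03 and 2.86 FPKM. Ptprc, which defines leukocytes, was at 0.383 and 0.644 FPKM. Summed smooth muscle and pericyte markers were at 21 and 27.7 FPKM, mostly Cspg4, and 4 endothelial markers at 3.02 and 5.36 FPKM. In bulk RNA, fewer cells of a type and less RNA per cell cannot be told apart, and the part of other cells in the transcript ranks was not tested.

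The genes with another leading transcript were spread over 20 chromosomes, with 8 to 36 on each. For each library, the lead is the FPKM of its leader minus that of the other library's leader, as a percentage of the coding FPKM of the gene. The smaller of the leads in both libraries had a median of 11.1 percentage points, with quartiles at 4.15 and 22.8 points and a range of 0.0387 to 89.1 points. It was 10 points or more in 201 genes, 25 points or more in 86 and 50 points or more in 20, and it was under 1 point in 33. In 278 genes (73.5%) the lead exceeded counting error in both libraries, judged by a 95% exact Clopper-Pearson interval on fragment equivalents. That interval covers counting error only and not the division of shared fragments among transcripts. Rpl22, whose leaders differ by only 3 bases, was among the 278. The genes were chosen for having a lead, so the counts of such leads per list given below rank no list.

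**Figure D1:**
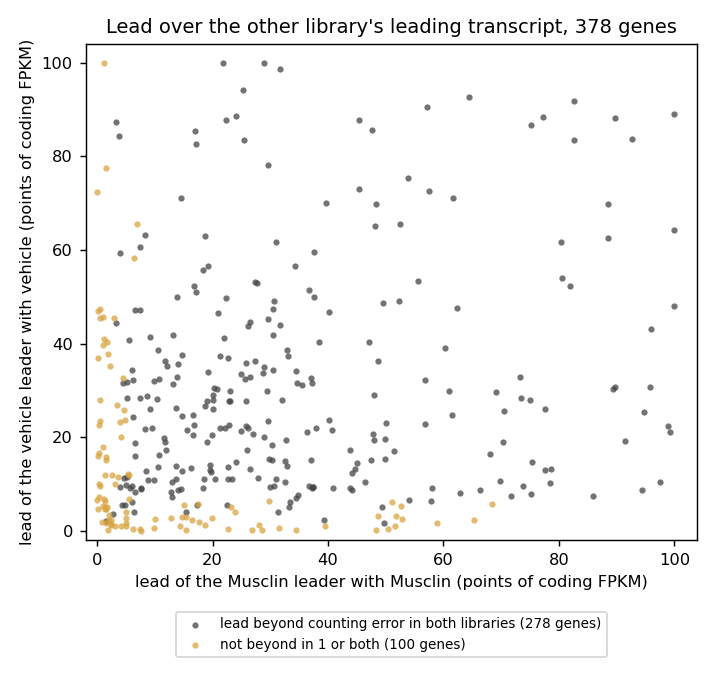
Lead of the Musclin leader with Musclin (horizontal axis) and of the vehicle leader with vehicle (vertical axis), in percentage points of the coding FPKM of the gene, with 1 point per gene for 378 genes. The dark points are the 278 genes whose lead exceeded counting error in both libraries, and most of the lighter points lie along an axis, where 1 of the leads is small.

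The ranking was close at its edges. Just inside the rule, the smaller lead was 0.0387 points for Cldn12, 0.0442 points for Usp34 and 0.0849 points for Fdft1. Just outside it, Fam234a, Kat7 and Bag1 kept 1 leader with a gap of 0.0075, 0.186 and 0.219 points to the next transcript in the library where it was closest. Just above the floor on expression stood Arap1, Lnpk and Ppih, and the lower coding total of Arap1 was 10.02 FPKM. Just below it, Med23, Uimc1 and Pfkfb3, with a lower coding total of 9.98, 9.96 and 9.92 FPKM, also had another leader. Ranked by aligned bases (FPKM times transcript length) in place of FPKM, Usp34 and Ppih had the same transcript of the pair ahead in both libraries.

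Within a gene, expression was usually divided among several transcripts. The leader held a median of 53.9% of the coding FPKM with Musclin and 54.3% with vehicle, whereas in the 3198 genes with 1 leader it held 91.2% and 91.6%. The median share of the Musclin leader in the vehicle library was 30.1%, and that of the vehicle leader in the Musclin library was 29.2%. The leader held 50% or more in both libraries in 204 genes and in neither in 76. A gene with another leader had a median of 5 coding transcripts, compared with 3 in genes with 1 leader.

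The share of genes with another leader was larger the more coding transcripts a gene had. It was 4.54% of genes with 2 coding transcripts, 8.46% with 3, 10.2% with 4, 16.7% with 5 or 6, 21.5% with 7 to 9 and 36.8% with 10 or more. Across expression classes it was 11.2% at a mean coding level of 10 to 20 FPKM, 10.9% at 20 to 40, 10.5% at 40 to 80, 6.27% at 80 to 160 and 9.25% at 160 FPKM or more.

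**Figure D2:**
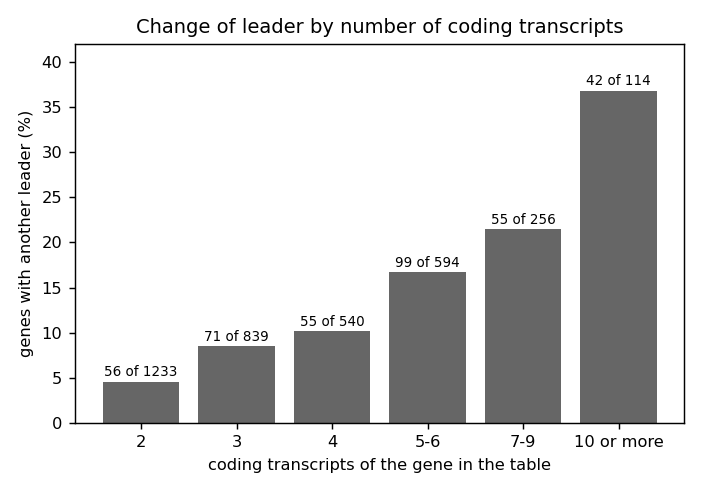
Share of genes with another leading transcript (vertical axis, %) by the number of coding transcripts of the gene in the table (horizontal axis), with the number of genes above each bar. The bars go up from 4.54% at 2 transcripts to 36.8% at 10 or more.

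The totals of these genes were close between the libraries. Summed over coding transcripts, 5 of the 378 genes were 2-fold or more higher with Musclin (1.32%), beside 1.12% of all 3576 genes, and 3 were 2-fold or more lower (0.794%), beside 1.03%. These calls are on log2(FPKM + 1), which understates the difference of low genes. The median absolute log2 ratio was 0.21 in the 378 genes and 0.18 over all 3576. These 8 genes, most of them named because of these values, included Pxylp1, the complement gene Cfb, the surface sialomucin gene Cd34 and the class I gene H2-T22 on the higher side, and Arhgef2, the asparaginyl-tRNA synthetase gene Nars and the nucleolar gene Tcof1 on the lower side. Nars was at 107 FPKM with Musclin against 226 FPKM with vehicle. H2-T22 has close relatives in the class I region, so that reads may be wrongly divided among them.

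Single transcripts were further apart than the totals. Since the rule picks genes for transcripts that trade places, the counts that follow describe the genes and support nothing. Of their 2035 coding transcripts, 211 were 2-fold or more higher with Musclin (10.4%), beside 4.37% over the coding transcripts of all 3576 genes, and 234 were 2-fold or more lower (11.5%), beside 4.22%. The authors' deposited table marks 427 of the 2035 as significant (21%), beside 8.43% over all 3576 genes. By the marks of the authors' deposited table, 251 of the 378 genes hold a marked coding transcript (66.4%), beside 23.2%, and 90 hold marked ones in both directions (23.8%), beside 3.91%. Both leaders are marked in 62 genes of the authors' deposited table, the Musclin leader alone in 71, the vehicle leader alone in 93 and neither in 152. In 35 genes a leader was listed at 0 in the other library, and of these 36 leaders the authors' deposited table marks none. Such leaders may not have been open to a mark at all, as that of Lrrc8d at 14.7 FPKM with Musclin and 0 with vehicle. The same may hold for some leaders above 0. The Musclin leader of Cox5b, at 12.4 FPKM with Musclin against 0.0723 FPKM with vehicle, is unmarked. The counts of unmarked leaders may thus include leaders that could not be marked. A missing mark is therefore no evidence that the levels were alike.

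Reference annotation of both leaders was found for 369 of the 378 genes. Their first exons did not overlap in 110 genes (29.8%), a coding exon was skipped in 1 of the leaders in 94 (25.5%), and the last exons did not overlap in 17 (4.61%). Both leaders had the same coding sequence in 107 genes (29.0%), so that only untranslated parts differed, and a gene can fall in several of these classes. In 120 genes none of the 4 descriptions applied, as where a splice site or an untranslated exon differed. In 656 genes with 1 leader whose next transcript held 20% or more of the coding FPKM in both libraries, the top pair had other first exons in 23.6%, a skipped coding exon in 24.1%, other last exons in 11.1% and the same coding sequence in 25.8%. That set was chosen after the values were seen. Over all 3166 annotated genes with 1 leader, whatever the level of the next transcript, the shares were 39.6% for other first exons, 21.1% for a skipped coding exon, 31.9% for other last exons and 19.1% for the same coding sequence. Other first exons were thus more frequent in the 378 genes than in the first set and less frequent than in the second.

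The leaders were often alike over most of their length. A median of 437 bases was found in 1 leader only, fewer than 50 bases in 31 genes and fewer than 10 in 8. The Musclin leader was the longer transcript in 191 genes and the shorter in 185, with median lengths of 3262 bases for Musclin leaders and 3184 bases for vehicle leaders. Where the coding sequences differed, their lengths differed by a multiple of 3 in 254 of 262 genes. The Musclin leader had the longer coding sequence in 125 genes and the vehicle leader in 130. The annotation tags both leaders as a principal isoform in 103 genes, the Musclin leader alone in 117, the vehicle leader alone in 97 and neither in 52.

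The 12 genes with the widest leads included receptor, scaffold and transcription factor genes. In these 12 the Musclin leader held 67.6% to 100% of the coding FPKM with Musclin and the vehicle leader 77.4% to 94.5% with vehicle. The coding totals of 11 of the 12 were within 2-fold, Pxylp1 being the exception, and that of Nav2, which encodes a neuron navigator protein of the cytoskeleton, was 14.5 FPKM with Musclin against 13.2 FPKM with vehicle.

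**Figure D3:**
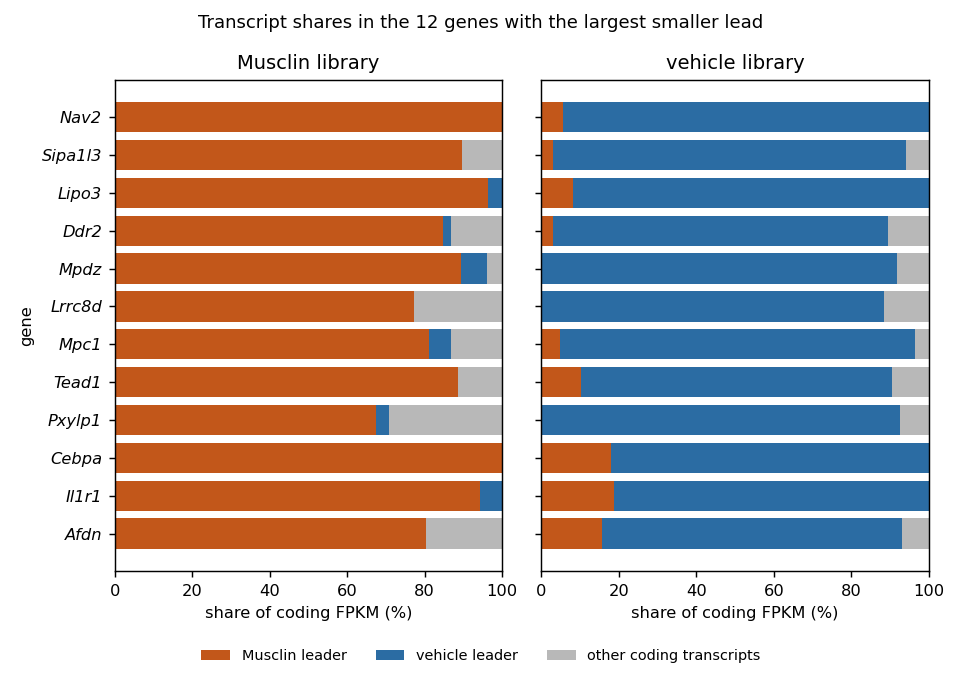
Share of the coding FPKM (horizontal axis, %) held by the Musclin leader, the vehicle leader and all other coding transcripts in the 12 genes with the largest smaller lead, in the Musclin library (left) and the vehicle library (right). In each gene the Musclin leader takes the larger part of the left bar, at 67.6% or more, and the vehicle leader that of the right bar, at 77.4% or more.

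Ddr2, a receptor tyrosine kinase that binds collagen (ENSMUSG00000026674, chr1:169972307-170110762, minus strand), had its Musclin leader ENSMUST00000194690 at 83.8 FPKM with Musclin against 3.97 FPKM with vehicle. Its vehicle leader ENSMUST00000170800 was at 2.04 FPKM with Musclin against 117 FPKM with vehicle. Both are marked in the authors' deposited table, both carry the same coding sequence of 2562 bases, and they start 21617 bases apart. The vehicle leader has no base that the Musclin leader lacks, and 301 bases are in the Musclin leader only. The total of Ddr2 was 98.9 FPKM with Musclin against 135 FPKM with vehicle, a log2 ratio of -0.44 on FPKM + 1.

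Il1r1, the signalling receptor of interleukin-1 (ENSMUSG00000026072, chr1:40225080-40317257, plus strand), has only these 2 coding transcripts in the table. ENSMUST00000027241, the Musclin leader, was at 22.2 FPKM with Musclin against 3.27 FPKM with vehicle, and ENSMUST00000114795, the vehicle leader, at 1.34 and 14.2 FPKM. The leaders start 41506 bases apart, at the windows shown above, and encode 576 and 573 residues. The 250 bases upstream of the Musclin leader's start are 48.4% G and C, those of the vehicle leader's 60.4%, and the median over 32851 promoter windows is 52.4%.

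Stat3, the transcription factor that carries interleukin-6 family signals (ENSMUSG00000004040, chr11:100885098-100939540), had the longer form ahead with Musclin and the shorter one ahead with vehicle. The Musclin leader ENSMUST00000127638, with a coding sequence of 2310 bases, was at 37.8 FPKM with Musclin against 14.9 FPKM with vehicle. The vehicle leader ENSMUST00000103114, with 2166 coding bases, lacks the 50 bases shown above and was at 20.0 and 30.9 FPKM. Those 50 bases are a small part of what tells the leaders apart. In all, 186 bases are in the Musclin leader only and 1712 in the vehicle leader only, and the leaders end 1712 bases apart. Which of these stretches the estimates rest on was not tested. The shorter protein is of the kind known as STAT3β, which lacks the end of the transactivation domain. The Musclin leader, the shorter RNA with the longer coding sequence, took 56.5% of the coding FPKM with Musclin and 30.7% with vehicle. It is the one of the pair that the authors' deposited table marks.

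In the list of growth factor and cytokine signalling, 4 of 44 genes had another leader (9.09%), below the 10.6% of all genes. Acvrl1, a BMP receptor gene, was another of the 4. Among kinase and adaptor genes of the MAPK, PI3K and mTOR pathways it was 6 of 40 (15%). Map4k5, a kinase upstream of the JNK pathway, had its Musclin leader at 23.9 FPKM with Musclin against 5.37 FPKM with vehicle, and its vehicle leader at 15.5 FPKM with vehicle and near 0 with Musclin. In Map4k3, of the same kinase family, the Musclin leader has 132 bases that the vehicle leader lacks. Among them is the 63-base exon shown above, whose inclusion was 68.4% with Musclin and 24.2% with vehicle. Inclusion here is the FPKM of coding transcripts with the exon, as a percentage of that of coding transcripts that hold or skip it. Gnas, which encodes the stimulatory G protein subunit, had 10 coding transcripts. Its Musclin leader was at 224 FPKM with Musclin against 57.6 FPKM with vehicle, and its vehicle leader, which starts 2321 bases away and has the same coding sequence, at 13.4 and 137 FPKM. The Musclin leader of Gnas has no base that the vehicle leader lacks, and 2187 bases are in the vehicle leader only.

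Among transcription and chromatin regulators, 16 of 112 genes had another leader (14.3%, beside 10.6% of all genes). Tead1, the DNA-binding partner of YAP and TAZ (ENSMUSG00000055320, chr7:112679318-112906807, plus strand), had the widest lead in this list. Its Musclin leader ENSMUST00000059768 was at 30.6 FPKM with Musclin against 3.71 FPKM with vehicle. Its vehicle leader ENSMUST00000069256 was listed at 0 with Musclin and at 28.9 FPKM with vehicle. The leaders start 80064 bases apart, and the Musclin leader also holds 2 coding exons that the vehicle leader skips. In all, 484 bases are in the Musclin leader only, and the vehicle leader has no base that the Musclin leader lacks. The 63-base exon was included at 88.6% with Musclin and 11.7% with vehicle, and the 12-base exon at 88.9% and 10.3%.

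Yap1, the coactivator that binds Tead1 and was chosen here after its values were seen, also had another leader. Its 48-base exon was included at 15.9% with Musclin and 65.4% with vehicle. The Musclin leader of Yap1, without the exon, was at 32.1 FPKM with Musclin against 12.2 FPKM with vehicle. The vehicle leader, with the exon, was at 5.73 and 22.7 FPKM. The total of Yap1 was 38.1 FPKM with Musclin against 35.4 FPKM with vehicle.

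Cebpa, an adipogenic transcription factor gene (ENSMUSG00000034957, chr7:35119293-35121928), has 1 exon in its Musclin leader and 2 in its vehicle leader. ENSMUST00000042985, the Musclin leader with 1077 coding bases, was at 11.7 FPKM with Musclin against 3.97 FPKM with vehicle. ENSMUST00000205391, the vehicle leader with 477 coding bases, was listed at 0 with Musclin and at 18.3 FPKM with vehicle. The annotation tags that vehicle leader as resting on evidence from another organism. Within the adipogenesis and lipid list 4 of 28 genes had another leader (14.3%, beside 10.6% of all genes), and the other 3 were Acaca, Hmgcs1 and Acsl3. Acaca, acetyl-CoA carboxylase of fatty acid synthesis, had its Musclin leader at 13.7 FPKM with Musclin against 2.31 FPKM with vehicle. Its vehicle leader, which starts 22316 bases away with the same coding sequence, was at 2.94 and 16.3 FPKM. The Musclin leader of Acaca has no base that the vehicle leader lacks, and 487 bases are in the vehicle leader only.

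Other regulators differed in their ends. Sin3b, a corepressor scaffold gene, had a Musclin leader of 19 exons at 11.2 FPKM with Musclin against 7.59 FPKM with vehicle, and a vehicle leader of 7 exons that ends elsewhere, at 5.90 and 17.1 FPKM. Nfat5, a factor of the response to osmotic stress, had leaders with the same coding sequence and other last exons. The Musclin leader of Nfat5 was at 11.3 FPKM with Musclin against 0.105 FPKM with vehicle, and the vehicle leader at 5.82 and 10.5 FPKM. Ranked by aligned bases, Sin3b and Nfat5 each had the same transcript of the pair ahead in both libraries, with smaller leads of -25.8 points for Sin3b and -11.3 points for Nfat5. In the list of cell cycle and DNA replication genes 4 of 80 had another leader (5%, beside 10.6% of all genes), namely Polr3d, E2f1, Polr1d and Cdk5rap2. That list was matched by symbol and also took in 8 RNA polymerase subunit genes, of which Polr3d and Polr1d are 2, so E2f1, which drives entry into S phase, and the centrosomal gene Cdk5rap2 are the others. The Musclin leader of E2f1 was at 8.05 FPKM with Musclin against 5.42 FPKM with vehicle, and its vehicle leader at 6.51 and 12.2 FPKM.

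Splicing regulators had another leader in 11 of 86 genes (12.8%, beside 10.6% of all genes). They were Hnrnph1, Celf1, Srsf11, Rbm10, Mbnl1, Rbm42, Srsf7, Rbm3, U2af2, Ddx41 and Rbm26. The lead exceeded counting error in both libraries in 7 of the 11, beside 73.5% of the 378 genes, a difference that was not tested. Hnrnph1, which binds runs of G in pre-mRNA, had its Musclin leader ENSMUST00000077817 at 35.8 FPKM with Musclin against 2.39 FPKM with vehicle. The vehicle leader ENSMUST00000069304 was at 13.3 and 36.5 FPKM, and it carries the 50-base exon shown above. Celf1, an RNA-binding protein gene, had its Musclin leader at 11.4 FPKM with Musclin against 2.73 FPKM with vehicle and its vehicle leader at 4.24 and 11.3 FPKM. In Mbnl1, chosen here after its values were seen, a 95-base exon was included at 54.2% with Musclin and 42.6% with vehicle.

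Of 59 genes listed for alternative splicing known in mesenchymal or muscle cells, 6 had another leader (10.2%, beside 10.6% of all genes), and these were Tead1, Tpm1, Mbnl1, Fhl1, Fn1 and Rac1. Tpm1, a tropomyosin gene, had 16 coding transcripts, and no leader held more than 35.1% of its coding FPKM. The Musclin leader ENSMUST00000113707 was at 136 FPKM with Musclin against 28.2 FPKM with vehicle, and the vehicle leader ENSMUST00000030185, with another last exon, at 47.9 and 71.2 FPKM.

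Across the 94 genes with a skipped coding exon there were 128 such exons, with a median length of 81 bases. A multiple of 3 was the length of 108 of them (84.4%). The exon belonged to the Musclin leader in 68 cases and to the vehicle leader in 60. Inclusion summed over all coding transcripts of the gene moved with the leaders in 124 of 128, and by 10 points or more in 105, which follows in part from the rule. All exons of a transcript move together in such values, since they rest on transcript FPKM and not on reads over each junction.

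**Figure D4:**
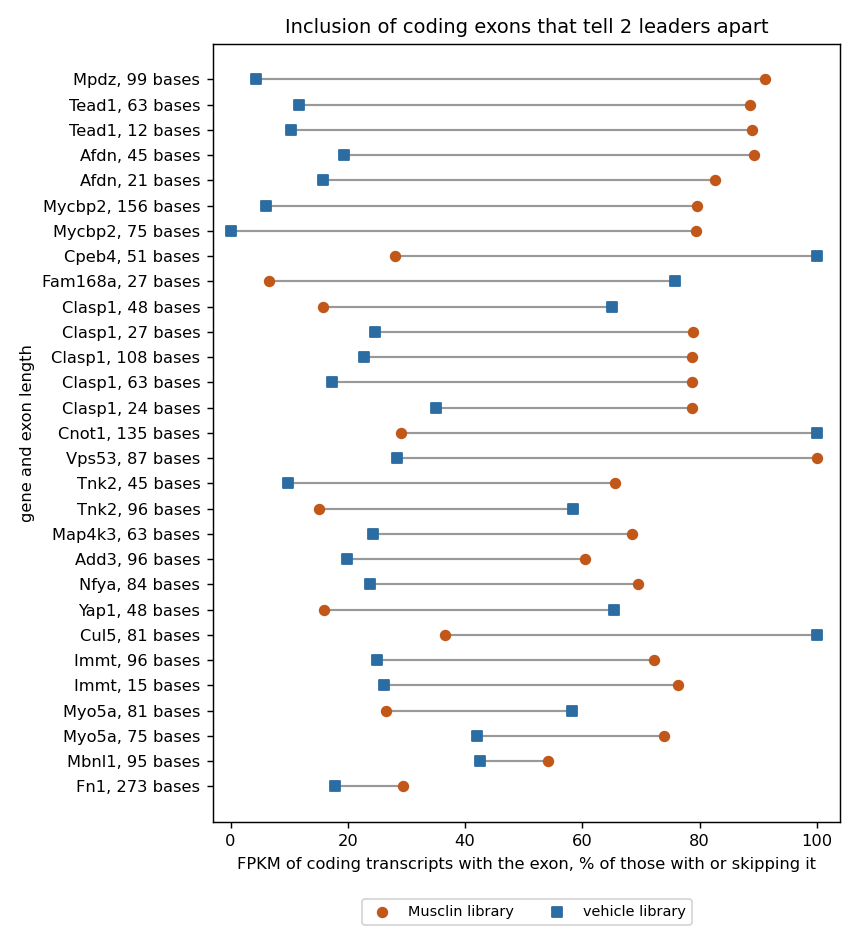
Inclusion of coding exons present in 1 of the leaders (horizontal axis, FPKM of coding transcripts with the exon as a percentage of that of transcripts holding or skipping it), with 1 row per exon, circles for the Musclin library and squares for the vehicle library. The rows are a hand-picked part of the genes with such exons, and include genes that the text does not describe. The Mpdz exon stands at 91.1% with Musclin and 4.43% with vehicle, and the Fn1 exon, in the lowest row, at 29.5% and 17.9%.

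Of the named genes with such exons, 4 are described here. The 99-base exon of Mpdz, a scaffold with many PDZ domains, was included at 91.1% with Musclin and 4.43% with vehicle. The Mpdz leaders also start 21565 bases apart, with 271 bases in the Musclin leader only and none in the vehicle leader only. In Afdn, which encodes afadin and ties nectin adhesion to actin, the 45-base exon was included at 89.3% with Musclin and 19.3% with vehicle. The 21-base exon of Afdn was included at 82.6% and 15.7%. In Vps53, part of a complex that tethers vesicles at the Golgi, the 87-base exon was included at 100% with Musclin and 28.3% with vehicle. Cul5, a scaffold of ubiquitin ligases, went the other way, with its 81-base exon at 36.6% with Musclin and 100% with vehicle. The Cul5 leaders also end 2442 bases apart.

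In the list of vesicle transport and small GTPases 6 of 119 genes had another leader (5.04%, beside 10.6% of all genes), a difference that was not tested. Besides Vps53, Snx10, a sorting nexin gene, had leaders with the same coding sequence that start 20622 bases apart. Its Musclin leader was at 6.19 FPKM with Musclin against 4.43 FPKM with vehicle, and its vehicle leader at 3.68 and 8.03 FPKM. The actin, myosin and tropomyosin list held 4 of 54 (7.41%), and integrins and adhesion none of 19. Myo5a, a myosin that moves cargo along actin, had its Musclin leader at 36.3 FPKM with Musclin against 25.2 FPKM with vehicle and its vehicle leader at 12.9 and 34.4 FPKM. Ranked by aligned bases, Myo5a had 1 transcript of the pair ahead in both libraries, with a smaller lead of -14.7 points.

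Matrix genes with another leader were 4 of 37 (10.8%, beside 10.6% of all genes), namely Fbln5, Fbn1, Fn1 and Timp1. Fn1, which encodes fibronectin (ENSMUSG00000026193, chr1:71585520-71653200, minus strand), was the most abundant of all genes with another leader. Its Musclin leader ENSMUST00000055226 was at 462 FPKM with Musclin against 517 FPKM with vehicle, and its vehicle leader ENSMUST00000188894 at 389 and 841 FPKM. Both were lower with Musclin, the vehicle leader by more, and the coding total was 1567 FPKM with Musclin against 2890 FPKM with vehicle, a log2 ratio of -0.88. The leaders differ by the 273-base exon shown above, known as extra domain B (EDB), which was included at 29.5% with Musclin and 17.9% with vehicle. Another 270-base exon, at chr1:71603660-71603929, was included at 75.8% and 72.6%.

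Fbn1, which encodes the microfibril protein fibrillin-1, had both of its coding transcripts above 100 FPKM in both libraries. Its Musclin leader was at 143 FPKM with Musclin against 110 FPKM with vehicle and its vehicle leader at 106 and 182 FPKM, with the same coding sequence. Fbln5, which encodes fibulin-5 of elastic fibres, had its Musclin leader at 31.8 FPKM with Musclin against 22.1 FPKM with vehicle and its vehicle leader at 14.6 and 30.0 FPKM. Timp1, an inhibitor of metalloproteinases, had both leaders at nearly the same level, 490 FPKM with Musclin against 394 FPKM with vehicle for the Musclin leader and 475 and 411 FPKM for the vehicle leader. Its smaller lead was 1.48 points. By aligned bases, Fbln5 and Timp1 each had 1 transcript of the pair ahead in both libraries, with smaller leads of -5.99 and -1.43 points.

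**Figure D5:**
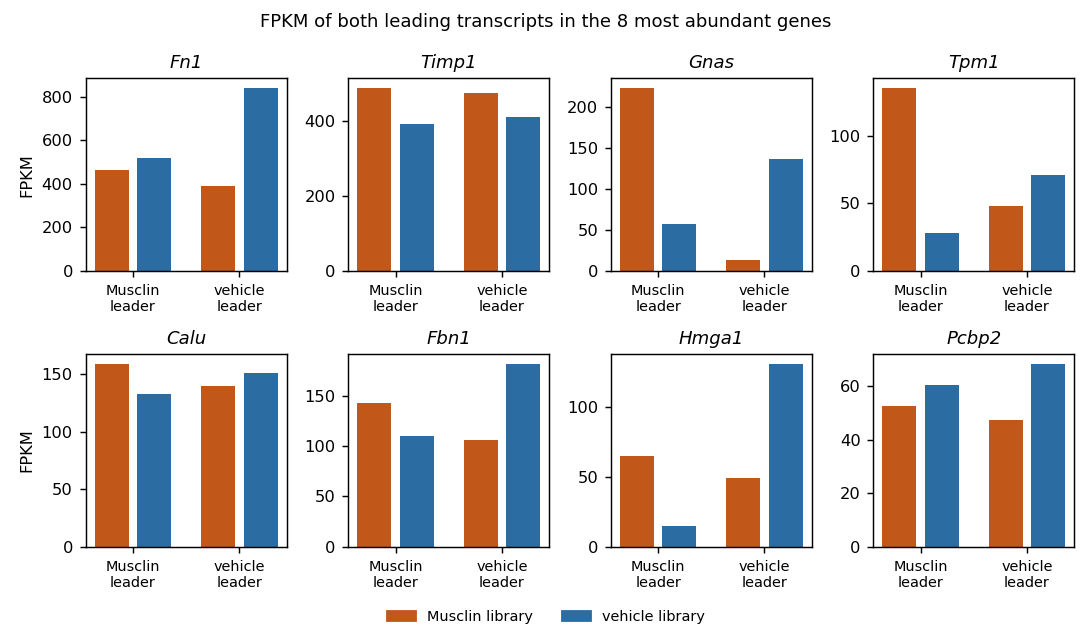
FPKM (vertical axis) of the Musclin leader and the vehicle leader in the 8 most abundant genes with another leader, with the Musclin library left and the vehicle library right in each pair. In Gnas, Tpm1 and Hmga1 the Musclin leader is the highest as a fold of its own level with vehicle, such as 224 FPKM with Musclin against 57.6 FPKM with vehicle in Gnas, while in Timp1, Calu and Pcbp2 both leaders are close in both libraries and 1 transcript of the pair is ahead in both libraries when ranked by aligned bases.

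The remaining abundant genes were Hmga1, Calu and Pcbp2. Hmga1, which encodes a DNA-binding architectural protein, had its Musclin leader at 64.9 FPKM with Musclin against 15.2 FPKM with vehicle and its vehicle leader at 49.3 and 131 FPKM, with the same coding sequence. Calu, which encodes the calcium-binding protein calumenin, had leads of 6.09 points with Musclin and 6.21 points with vehicle. Pcbp2, an RNA-binding protein gene with 22 coding transcripts, had leads of 2.76 and 3.59 points. By aligned bases, Calu and Pcbp2 each had 1 transcript of the pair ahead in both libraries, with smaller leads of -2.88 and -6.07 points.

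Lists of the protein synthesis machinery held changes of leader in 3 of 49 ribosomal protein genes (6.12%) and 4 of 52 genes for translation factors and tRNA synthetases (7.69%). Over all genes the share was 10.6%. Rpl22, a protein of the large ribosomal subunit, had its Musclin leader at 7.45 FPKM with Musclin against 5.6 FPKM with vehicle. Its vehicle leader was at 3.77 and 12.7 FPKM, and the leaders differ by only 3 bases. Farsa, a subunit gene of phenylalanyl-tRNA synthetase, had its Musclin leader at 7.42 FPKM with Musclin against 5.29 FPKM with vehicle and its vehicle leader at 3.12 and 8.19 FPKM. Eif5, a factor of start codon recognition, had its Musclin leader at 40.7 FPKM with Musclin against 36.1 FPKM with vehicle and its vehicle leader at 25.6 and 48.7 FPKM.

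Of 36 genes of mitochondrial respiration, 2 had another leader (5.56%, beside 10.6% of all genes). Cox5b, a subunit gene of cytochrome c oxidase, had its Musclin leader, of 625 bases, at 12.4 FPKM with Musclin against 0.0723 FPKM with vehicle. Its vehicle leader was at 6.43 and 16.6 FPKM. Atp5d, a subunit gene of ATP synthase, had its Musclin leader at 53.0 FPKM with Musclin against 16.6 FPKM with vehicle and its vehicle leader at 5.56 and 24.7 FPKM. Mpc1, a subunit gene of the pyruvate carrier outside that list, had its Musclin leader at 8.93 FPKM with Musclin against 0.680 FPKM with vehicle and its vehicle leader at 0.647 and 13.0 FPKM. Its leaders share all but 46 bases of sequence.

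In the list of proteasome, ubiquitin system and autophagy genes 11 of 79 had another leader (13.9%, beside 10.6% of all genes). Leads were beyond counting error in both libraries in 5 of the 11, beside 73.5% of the 378 genes, a difference that was not tested. The 11 were 6 of 19 deubiquitinase genes of the Usp family, 4 of 24 genes of the Ube2 family of conjugating enzymes and Cul5, while none of 19 proteasome subunit genes had another leader. These family counts are small and were not tested. Smaller leads were 22.6 points for Usp47 and 20.6 for Usp1, but 1.31 for Usp14, 0.572 for Usp40, 0.236 for Usp19 and 0.0442 for Usp34. Among chaperone and folding genes 6 of 45 had another leader (13.3%). Ube2v2, which encodes a partner of a ubiquitin-conjugating enzyme, had its Musclin leader of 4207 bases at 9.17 FPKM with Musclin against 6.09 FPKM with vehicle. Its vehicle leader of 609 bases was at 0.869 and 11.1 FPKM. Ranked by aligned bases, Ube2v2 had 1 transcript of the pair ahead in both libraries, with a smaller lead of -57.2 points, the most negative among the named genes. Dnajc2, a co-chaperone at the ribosome, had its Musclin leader at 4.91 FPKM with Musclin against 3.45 FPKM with vehicle and its vehicle leader at 2.6 and 7.96 FPKM. Ppil2, of the cyclophilin-like family, had its Musclin leader at 14.4 FPKM with Musclin against 9.42 FPKM with vehicle and its vehicle leader at 8.34 and 12.2 FPKM.

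Among solute carriers, 6 of 53 had another leader (11.3%, beside 10.6% of all genes). The lead exceeded counting error in both libraries in all 6, beside 73.5% of the 378 genes. With only 6 genes, that difference was not tested. Slc7a2, a transporter gene for cationic amino acids, had its Musclin leader at 11.5 FPKM with Musclin against 2.04 FPKM with vehicle and its vehicle leader at 3.77 and 7.47 FPKM. Lrrc8d, a subunit gene of the volume-regulated anion channel outside that list, was the 1 gene whose leaders were each listed at 0 in the other library. The Musclin leader of Lrrc8d was at 14.7 FPKM with Musclin and the vehicle leader at 9.31 FPKM with vehicle, and both have the same coding sequence.

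The remaining genes with wide leads were Sipa1l3, Lipo3 and Pxylp1. Sipa1l3, of a family of activators of the Rap GTPase, had leaders of 7713 bases, each with 4 bases that the other lacks. Its Musclin leader was at 9.02 FPKM with Musclin against 0.309 FPKM with vehicle, and its vehicle leader was listed at 0 with Musclin and at 9.26 FPKM with vehicle. Lipo3, a lipase gene with close relatives beside it on chromosome 19, between which reads may be wrongly divided, had leaders that start 171643 bases apart. Pxylp1, a phosphatase of glycosaminoglycan synthesis, had a Musclin leader that was at 20.7 FPKM with Musclin and was listed at 0 with vehicle, and its vehicle leader at 0.971 and 11.4 FPKM. Its coding total was 30.7 FPKM with Musclin against 12.3 FPKM with vehicle.

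When transcripts with the same annotated coding sequence were summed, 243 of the 369 annotated genes still had another leading coding sequence. Both leaders have the same coding sequence in 21 of the 53 named genes, so these leaders differ only in untranslated parts. Of these 21 genes, 5 are among the 12 widest leads (Sipa1l3, Lipo3, Ddr2, Lrrc8d and Pxylp1). The shared coding sequence of Ddr2 held 89.1% of the coding FPKM with Musclin and 89.7% with vehicle, and that of Gnas held 54.1% and 71.0%. The 3 eligible genes of the list known from the study, out of Npr3, Cd47, Filip1l and Foxo3, each kept 1 leader. Since only 10.6% of all genes had another leader, 3 genes are too few to tell anything.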

How the data were processed

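RNA of 2 samples, 1 with Musclin and 1 with vehicle, was analysed from 1 table of transcripts. The authors deposited FPKM per transcript, 1 column per condition, as the file headers say. StringTie, DESeq2 and edgeR are named in the submitters' processing notes, with no role or version. No aligner or build is given there. The authors deposited a fold change per transcript (Musclin over vehicle, 0.0001 standing in for 0), its log2, a p-value, a q-value and a significance mark, from a test that the sources do not name. Only the marks were used here.

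Protein-coding transcripts were ranked within each gene and library by FPKM, among genes with 2 or more such transcripts and a coding sum of 10 FPKM or more in both libraries. Totals were compared on log2(FPKM + 1), with a call at 2-fold, and no test was run. Depth was worked out from steps of FPKM times length in 4381 single-exon genes with Musclin and 4304 with vehicle, in which 73.8% and 73.9% of the values were whole within 0.1. With 298 bases per read pair this gives 22457346 fragment equivalents with Musclin and 22676993 with vehicle, from which 95% exact Clopper-Pearson intervals of the leader's share of both leaders' fragments were computed. A lead exceeded counting error where that interval excluded the share at which both FPKM would be equal.

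Structures come from the GENCODE vM21 annotation (GRCm38), in which 13548 of 13657 coding transcripts of the 3576 genes were found, 13515 of them with the start and end the table gives. Promoter windows come from RefSeq (GRCm38.p6). The ranking was run on simulated data with an independent count for each transcript. That run did not simulate the division of shared fragments among transcripts, so it cannot show errors from it. Python 3.11.15, pandas 2.3.3, numpy 2.4.6, scipy 1.17.1 and matplotlib 3.10.9 were used.

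The genes and the 18 gene lists, some matched by symbol prefix, were chosen with earlier results of these data known. Named are genes with an official symbol: the 12 with the largest smaller lead, the 8 with the highest coding FPKM, the 2 widest leads per list, the 3 widest per structural class, and 3 on either side of each threshold. Some genes that this rule names appear only in the closing section, and some are not reported here.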

Additional observations from a re-analysis of the deposited data

How the results depend on the processing

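The number of genes with another leader depended on the floor on coding FPKM, as did the number of eligible genes. Another leader was found in 568 of 5277 genes at a floor of 5 FPKM, 191 of 1924 at 20 FPKM and 60 of 667 at 50 FPKM. With no floor it was found in 1387 of 9164 genes. The number was 201 of 3576 when a lead of 10 points was required in both libraries. It stayed within 1.5-fold of 378 under the 7 other settings, from 261 with transcripts of 1 coding sequence summed, a setting added after the data were seen, to 402 with every transcript type ranked. Ranked by aligned bases there were 350 genes, 294 of them among the 378.

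At a pseudocount of 5, 4 of the genes in place of 8 had coding totals 2-fold apart. The number with leads beyond counting error was 258 with 99% intervals and 295 when counted in single reads. The median smaller lead of the 53 named genes was 26.6 points, and it was 21.7 points by aligned bases, 27.2 points for the 46 genes left with transcripts of 1000 bases or more, and 20.1 points for the 43 left when transcripts listed at 0 were dropped.

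By aligned bases 10 of the 53 had the same transcript of the pair ahead in both libraries, with smaller leads of -57.2 points for Ube2v2, -25.8 for Sin3b, -21.5 for Ppih, -14.7 for Myo5a, -11.3 for Nfat5, -6.07 for Pcbp2, -5.99 for Fbln5, -3.47 for Usp34, -2.88 for Calu and -1.43 for Timp1. FPKM divides by transcript length, so leaders of unequal length can change rank.

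No paired analysis was possible because each group has 1 library. With 1 library per group, no library can be left out and no spread estimated. Depth limits low transcripts, and the division of fragments among near-identical transcripts could not be checked without reads.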

Other observations

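Among the named genes not described above, Arap1, whose product acts on small GTPases, had its Musclin leader at 6.49 FPKM with Musclin against 0.315 FPKM with vehicle and its vehicle leader at 3.38 and 5.64 FPKM. Efcab14 had leaders with other last exons, the Musclin leader at 10.6 FPKM with Musclin against 4.86 FPKM with vehicle and the vehicle leader at 6.63 and 9.01 FPKM. Rps19, a protein of the small ribosomal subunit, had its Musclin leader at 27.7 FPKM with Musclin against 10.3 FPKM with vehicle and its vehicle leader at 20.8 and 26.6 FPKM, with the same coding sequence.

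Lnpk, which shapes junctions of the endoplasmic reticulum, had its Musclin leader at 5.26 FPKM with Musclin against 5.34 FPKM with vehicle and its vehicle leader at 4.72 and 6.80 FPKM. Fdft1, which encodes squalene synthase, had its Musclin leader at 8.89 FPKM with Musclin against 3.29 FPKM with vehicle and its vehicle leader at 8.87 and 10.1 FPKM. For Lnpk, Ppih, Fdft1, Usp34 and Cldn12, at least 1 of the leads lay within counting error.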
